A study of Zea mays with 2182 samples.

Results

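Plastid-encoded genes outside the photosystems were examined in single-cell transcriptomes of the maize anther: the rows of the UMI table whose names start, in lower case, with ndh, atp, pet, rps, rpl, rpo, ycf or cem. The rule found 18 of 22173 rows. They were 5 subunits of the plastid NADH dehydrogenase-like complex (ndhE, ndhF, ndhG, ndhH and ndhI), the ATP synthase subunit atpI, cemA, ycf70, 6 ribosomal protein genes (rpl14, rpl33, rps2, rps3, rps16 and rps18) and 4 RNA polymerase subunits (rpoA, rpoB, rpoC1 and rpoC2), while no row began with pet. All cells came from the fertile inbred line W23, grown in a greenhouse with no treatment; the 11 groups were anthers of 0.5 to 3.0 mm in steps of 0.25 mm. Cells were fixed, released by digestion, sorted singly and sequenced by CEL-Seq2, which counts each captured molecule once through a unique molecular identifier (UMI). The study states that each stage came from 2 or more plants, but cells carry no plant label. All cells of a length were therefore summed to 1 sample in the main fits. Their p-values measure a slope only against the scatter of lengths about a fitted line, which may be technical. Permutation p-values of ratios measure a slope only against other orders of the lengths. Fits with sets or set numbers as terms used sums per set and length or per pool. In such a sum, more cells of one kind and more RNA per cell cannot be told apart.

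A plastid genome is read by a multi-subunit RNA polymerase, whose core the rpo genes encode, and by a phage-type RNA polymerase imported from the cytosol. In leaves, photosystem genes depend mainly on the plastid-encoded polymerase, the genes for its own rpoB, rpoC1 and rpoC2 subunits are read mainly by the imported one, and many ribosomal protein and energy genes can be read by both. Plastid transcripts are often cut from long precursors that span neighbouring genes, and most carry no stable poly(A) tail.

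In RefSeq's gene table of Zm-B73-REFERENCE-NAM-5.0, 17 of the 18 names matched a plastid gene and ycf70 matched none. The name rps3 also matched 2 mitochondrial entries, so that row may hold reads of either organelle. By the order of protein genes in that table, rpoB, rpoC1, rpoC2, rps2 and atpI are neighbours in a row, ndhE, ndhG and ndhI follow psaC, rpl33 lies beside rps18, and cemA stands between ycf4 and petA. The strand setting of the counting is not stated, so reads of precursors that span neighbours cannot be assigned with certainty. The labels name poly(A) RNA as the molecule, and how well the method captures plastid RNA was not tested; levels of different rows are therefore not set against each other, only their courses.

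The 1658 cells with at least 500 UMIs gave between 132940 UMIs at 3.0 mm and 1496508 UMIs at 2.0 mm. Anther identity was visible in phasiRNA precursor rows, which reached 1926 CPM (UMIs scaled to a library of the same size) for the 21PHAS rows and 7599 CPM for the 24PHAS rows. Cell titles named 6 sets, and 2 of them stood apart: set Pilot (9.35% of the cells) and set MiSeq (1.69%) held only 2.0 mm anthers and had higher values of most members than the other sets at that length. In clusters 11, 14 and 16 of the 23 clusters used below, with 10.6% of the cells, cells of the same well name in different pools met more often than cluster size gives. Together the 18 rows held 79683 UMIs, 2.03% of all UMIs of these cells; the median cell had 1.44% of its UMIs in them, the highest cell 15.3%, and 6 cells had none.

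The row cemA, which encodes an inner envelope membrane protein known in green algae for a part in inorganic carbon uptake, had the clearest course. It stood at 1566, 2959, 3304, 2956, 4278, 4015, 3919.8, 3645, 4954, 5331 and 7289 CPM at the 11 lengths from 0.5 to 3.0 mm in order. The lowest value was at the shortest and the highest at the longest anthers. The mean was 2610 ± 920 CPM over the 3 shortest lengths and 5858 ± 1254 CPM over the 3 longest (SD, n = 3 lengths each), with no overlap between them. The row atpI, a membrane subunit of the proton channel of the plastid ATP synthase, stood at 671, 975, 1168, 940.1, 1329, 1307, 1444, 962, 1597, 1131 and 2227 CPM in the same order. Its extremes were also at 0.5 and 3.0 mm, but 2.25 mm and 2.75 mm dipped to the level of the short anthers. The row ycf70, an open reading frame without a function given here, stood at 546, 829, 869.9, 585, 1078, 1099, 748, 917, 1286, 1091 and 1061 CPM. It was lowest at 0.5 mm and highest at 2.5 mm, and the last 4 lengths were all above the first 4.

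The NDH complex carries electrons around photosystem I, and its plastid-encoded subunits were sparse. The row ndhF stood at 204.4, 456, 519, 336.7, 425, 407.7, 426, 328.8, 496, 435 and 406.2 CPM from 0.5 to 3.0 mm. After the low first length it showed little direction. The neighbours ndhG and ndhI did: ndhG stood at 55.3, 63.1, 77.6, 74.8, 99.1, 137.4, 254.6, 73.1, 156.4, 115.1 and 195.6 CPM, and ndhI stood at 91.4, 184.3, 179.7, 159.02, 268.1, 230.4, 558, 182.7, 458, 180.2 and 323.5 CPM. Both peaked at 2.0 mm and both were lowest at 0.5 mm. The third neighbour, ndhE, stood at 38.5, 43.7, 53.1, 60.8, 81.6, 39.9, 163.7, 48.7, 35.1, 95.1 and 75.2 CPM, and its low counts left the order of most lengths within counting error. The row ndhH stood at 62.5, 92.2, 93.9, 84.2, 64.1, 119.7, 169.1, 64.9, 156.4, 65.1 and 135.4 CPM. Its highest value was also at 2.0 mm.

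Ribosomal protein rows peaked at different lengths, 3 of the 6 at 1.0 mm. The row rps3, of the small subunit, stood at 3586, 4530.3, 5848, 4359, 5664, 5238, 4048, 2634, 3349, 3063 and 3761 CPM, and rpl14, of the large subunit, at 955, 1804, 2144, 1277, 1305, 1542, 1756, 966, 1251, 1026 and 1166 CPM. Both peaked at 1.0 mm and were lower at the last 4 lengths than there. The row rps16 stood at 565, 1019, 1389, 875, 903, 1285, 974, 840.3, 1286, 661 and 993 CPM and rps18 at 370.4, 543, 584, 585, 927, 700.2, 556, 405.9, 515, 556 and 624 CPM. The former was also highest at 1.0 mm, the latter at 1.5 mm. The row rps2 stood at 110.6, 252.2, 245.05, 201.1, 221.5, 203.9, 375.5, 113.7, 258.9, 80.1 and 105.3 CPM and rpl33 at 93.8, 179.5, 240.97, 107.6, 145.7, 203.9, 213.8, 125.8, 248.1, 120.1 and 188.1 CPM. The former was highest at 2.0 mm and lowest at 2.75 mm, and the latter swung between neighbouring lengths.

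The 4 RNA polymerase rows each had their lowest value at 2.25 mm or later. The row rpoC2, which encodes the β″ subunit, stood at 2756, 2469, 2728, 2348, 2628, 2203, 2925, 763, 1435, 1031 and 1692 CPM. It kept to a plateau up to 2.0 mm and was lower at each of the 4 later lengths. The row rpoB, the β subunit, stood at 1587, 1877, 2095, 1520.0, 1480.2, 1599.9, 2223, 706, 987, 831 and 1106 CPM, and its 4 lowest values were the last 4. The row rpoC1, the β′ subunit, stood at 469, 786, 735, 472, 524, 532, 1274, 235.4, 509.7, 210.2 and 398.7 CPM, with a peak at 2.0 mm. The row rpoA, the α subunit, stood at 544, 825, 980.2, 982, 909, 802, 1007, 539.9, 682, 676 and 534 CPM. It is encoded apart from the other 3 and was lowest at 3.0 mm, close to its value at 0.5 mm.

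**Figure D1:**
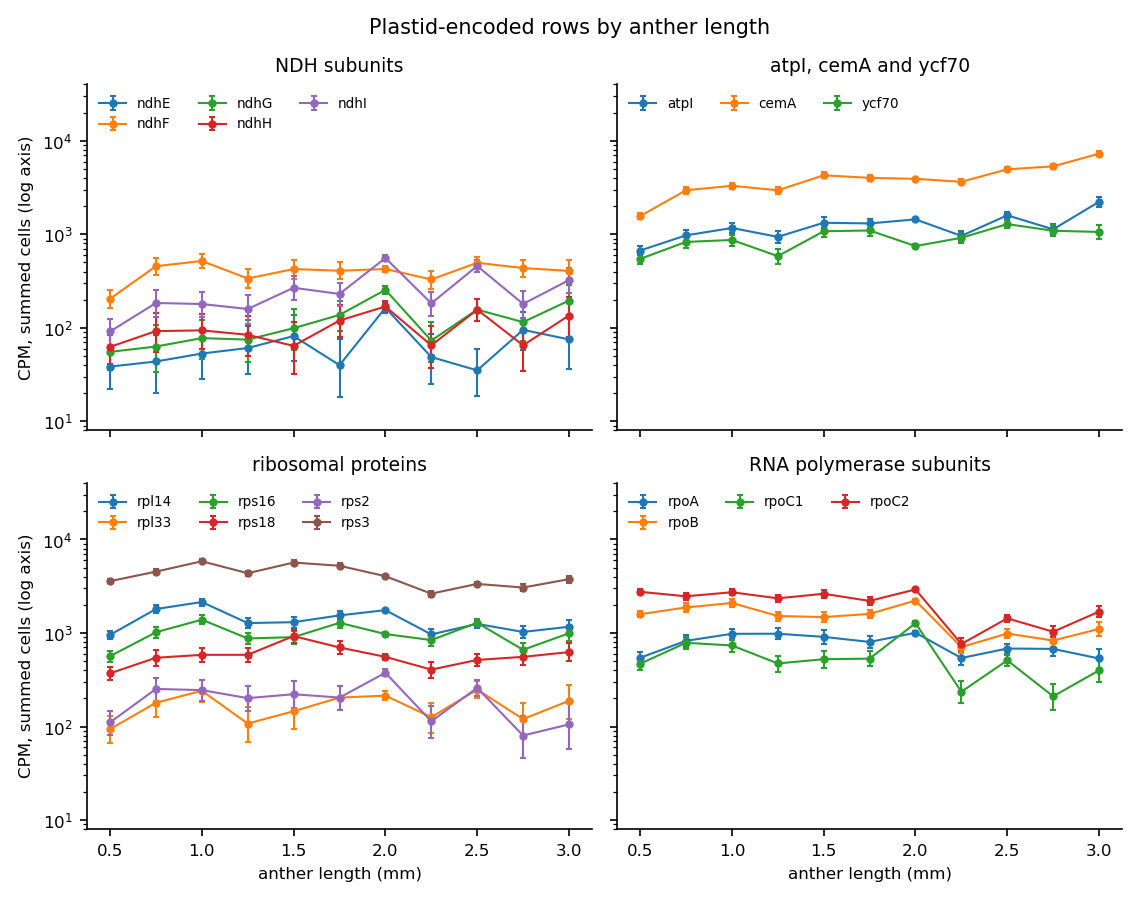
Level of each of the 18 rows by anther length, in CPM on a log axis, with exact 95% Poisson intervals that cover counting error only; each panel holds 1 group of rows and each point is the sum of all analysed cells of a length. The cemA line climbs from 1566 CPM at 0.5 mm to 7289 CPM at 3.0 mm, while rpoB and rpoC2 are lower at every length after 2.0 mm than at any earlier one. The 2.0 mm points mix sets of unlike levels.

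Over the 11 lengths, 5 of the 18 rows rose and 0 fell by edgeR, where 16.0% of the 5537 rows tested in the whole table rose and 14.2% fell (edgeR quasi-likelihood test of the slope on length, Benjamini-Hochberg adjusted p under 0.05, TMM scaling). The 5 were ndhG at 0.91 log2 units per mm (SE 0.22, adjusted p = 0.00599), ndhI with 0.84 (SE 0.24, adjusted p = 0.0153), cemA with 0.84 (SE 0.15, adjusted p = 0.000621), atpI with 0.68 (SE 0.15, adjusted p = 0.00381) and ycf70 with 0.55 (SE 0.14, adjusted p = 0.00724). They were 2 of the 5 NDH rows and each of the single rows of other function. Of the remaining NDH rows, ndhE (0.60, SE 0.27), ndhH (0.55, SE 0.21) and ndhF (0.37, SE 0.15) had positive slopes with edgeR adjusted p-values of 0.104, 0.0563 and 0.0717. No ribosomal protein row passed: the slopes were 0.38 for rpl33 (SE 0.19), 0.29 for rps18 (SE 0.15), 0.28 for rps16 (SE 0.17), 0.07 for rps2 (SE 0.25), 0.05 for rpl14 (SE 0.16) and 0.02 for rps3 (SE 0.16). All 6 were positive, though rpl14, rps2 and rps3 were negative with library size alone. Nor did any RNA polymerase row, with slopes of 0.07 for rpoA (SE 0.14), -0.07 for rpoC1 (SE 0.26), -0.17 for rpoB (SE 0.17) and -0.22 for rpoC2 (SE 0.19). Of the 3 negative slopes none had an unadjusted p under 0.05, and DESeq2 called 0 as fallen. DESeq2 called 7 of the 18 as risen, adding ndhF (adjusted p = 0.0472) and ndhH (adjusted p = 0.0462) to the 5, so that 4 of the 5 NDH rows passed by that tool. The median slope of the 18 rows was 0.33, beside 0.01 over all rows tested. Median slopes by group were 0.60 for NDH, 0.17 for ribosomal protein and -0.12 for RNA polymerase rows.

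The scaling set how many of these calls stood. With library size alone, which shifted the median slope of all rows to -0.23, the slopes of cemA (0.58), atpI (0.41) and ndhG (0.65) still passed (3 of the 18, where 8.85% of all rows rose), while ndhI (0.58, edgeR adjusted p = 0.0631) and ycf70 (0.30, edgeR adjusted p = 0.0941) did not. On that scale rpoC2 had a slope of -0.48 (SE 0.18, edgeR adjusted p = 0.0505) and rpoB one of -0.43 (SE 0.17, edgeR adjusted p = 0.0595). Without the 0.5 mm sum ndhI (0.70) no longer passed, and no other single length ended a call of the 5. No row had a curved course by the same test: 0 of the 18 had a squared term past an adjusted p of 0.05 by edgeR, while in the whole data 0.846% of 7332 rows did, with rps2 alone at an unadjusted p under 0.05, and DESeq2 gave 0 at either level.

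The sets that cover most lengths gave different sizes of slope. Within set 1.4.21, 9 of 15 tested rows rose, where 15.6% of all 1042 rows tested there did; atpI had a slope of 1.27 (SE 0.19), cemA one of 1.23 (SE 0.17) and ndhG one of 1.62 (SE 0.38). Within set 8.18.21, 0 of 17 rows rose by edgeR, where 10.1% of 4073 rows did; the slopes there were 0.46 for atpI (SE 0.20), 0.61 for cemA (SE 0.22) and 0.48 for ndhG (SE 0.23), each positive, with edgeR adjusted p-values of 0.134, 0.0801 and 0.164. Only atpI, cemA and rpoC2 had an unadjusted p under 0.05 there. With set as a covariate over all sums, 9 of the 18 rose, where 18.7% of 5964 rows did. At the other end rpoC2 had a slope of -0.67 within set 8.18.21 (SE 0.23, edgeR adjusted p = 0.0597) and of 0.30 within set 1.4.21 (SE 0.20, edgeR adjusted p = 0.277). The difference itself, tested as an interaction of set and length, was negative for all 17 rows tested and past the threshold for 0, with 6 at an unadjusted p under 0.05; over all 3030 rows tested, 0.198% passed. The largest of these differences were -1.19 for ndhG (SE 0.45), -1.03 for rpoC2 (SE 0.32), -0.94 for rps18 (SE 0.39) and -0.87 for atpI (SE 0.28), with edgeR adjusted p-values of 0.426, 0.264, 0.528 and 0.309.

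**Figure D2:**
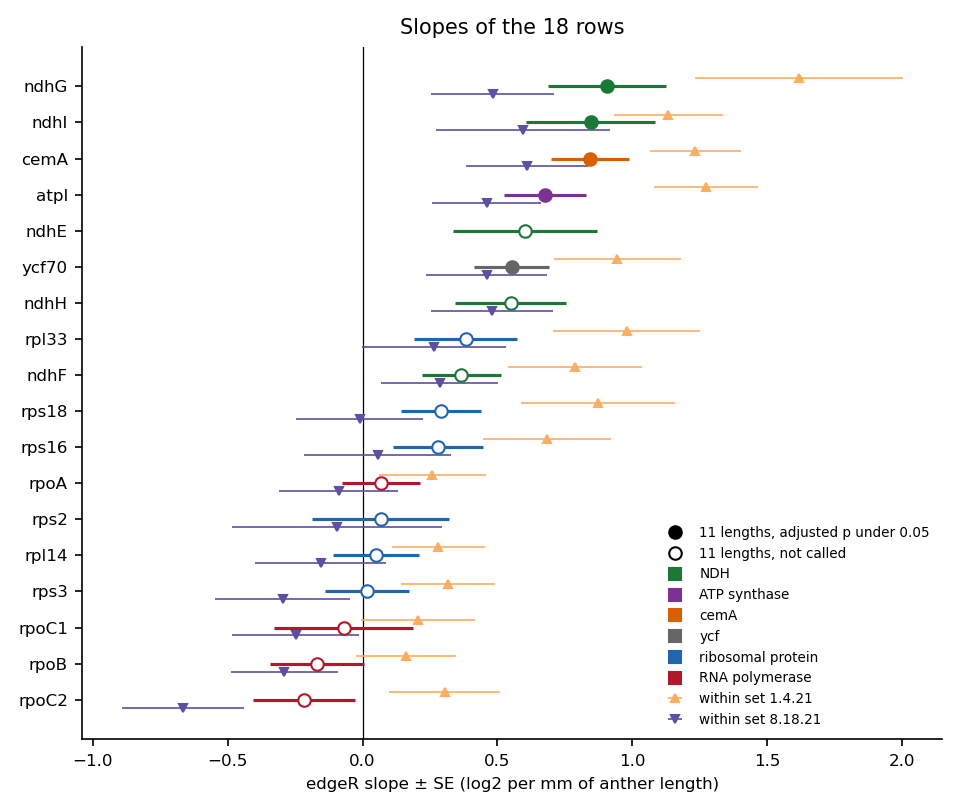
Slope on anther length with its standard error, in log2 units per mm, for the 18 rows in order; circles are the 11 sums, filled where the adjusted p was under 0.05, and triangles the sums of sets 1.4.21 and 8.18.21 alone, for the rows tested there. Circles run from -0.22 for rpoC2 to 0.91 for ndhG, and every row tested in both sets has the higher slope in set 1.4.21.

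The courses were then compared with each other. A plain ratio of 2 rows of the same sums does not depend on how libraries are scaled. The slope of log2((CPM of one + 20)/(CPM of the other + 20)) was tested for every pair of rows with different roles. The added 20 CPM brings back some dependence on scaling, most for rows at low levels. A two-sided permutation test over the 11 lengths with 100000 resamples was used, adjusted over all these pairs. Of the pairs, 61 (50.0%) passed an adjusted p of 0.05 and 73 an unadjusted one. Pairs that share a row are not independent. With 5 CPM or with 100 CPM added instead, 64 pairs passed, and all 61 kept their direction. The row cemA had a higher slope than all 4 RNA polymerase rows, all 6 ribosomal protein rows, atpI, ycf70 and ndhF. The row atpI was above all 4 RNA polymerase rows and 5 of the 6 ribosomal ones. NDH rows were above RNA polymerase rows in 16 of 20 pairs and above ribosomal rows in 10 of 30. Ribosomal rows were above RNA polymerase rows in 8 of 24 pairs, and no pair passed in the opposite direction. The row ycf70 was above RNA polymerase rows in 3 of 4 pairs and above ribosomal rows in 2 of 6.

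The widest difference was between cemA and rpoC2. Their ratio of CPM was 0.568 at 0.5 mm, 1.21 at 1.0 mm, 1.63 at 1.5 mm, 4.78 at 2.25 mm and 4.31 at 3.0 mm, which gave 1.12 log2 units per mm (residual SE 0.16, permutation p = 0.00013, adjusted p = 0.00106). The ratio at each of the last 4 lengths exceeded that at every earlier one. The ratio of cemA to rps3 went from 0.437 to 1.94 with a slope of 0.83 (residual SE 0.06) and a permutation p of 1e-05, the smallest these resamples can give (adjusted p = 0.000305). The ratio of ndhG to rpoC2 went from 0.0201 to 0.116, with a slope of 1.03 (residual SE 0.09, permutation p = 1e-05, adjusted p = 0.000305). Even neighbours differed: atpI and rps2, side by side in the plastid gene order, had a ratio of 6.07 at 0.5 mm, 3.85 at 2.0 mm and 21.1 at 3.0 mm, a slope of 0.63 (residual SE 0.19, permutation p = 0.00496, adjusted p = 0.0159). The highest of these ratios rests on 14 UMIs of rps2 at 3.0 mm, and the 2.0 mm sum mixes sets of unlike levels.

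**Figure D3:**
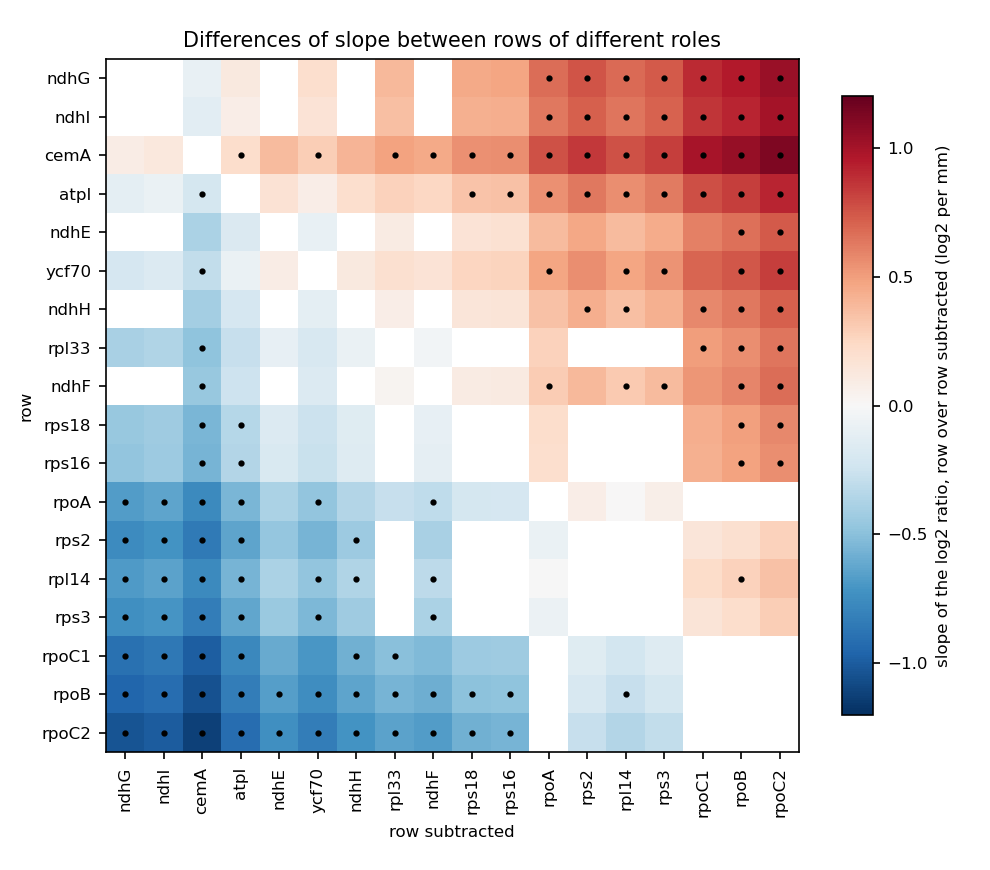
Slope of the log2 ratio of the row on the vertical axis over the row on the horizontal axis, in log2 units per mm, for every pair of rows with different roles, rows ordered by their own slope; dots mark an adjusted permutation p under 0.05 and blank cells are rows of the same role. Of the 61 marked pairs, 24 set cemA, atpI or an NDH row above an RNA polymerase row, 21 set one of them above a ribosomal protein row, and 8 set a ribosomal protein row above an RNA polymerase row.

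The pairs were then followed within the sets with most lengths. Cells of sets 8.18.21 (47.3% of the analysed cells) and 1.4.21 (15.6%) were part of the sums that picked the 61 pairs. Kept directions are therefore no independent check. All 61 pairs kept their direction within set 8.18.21 and 60 of them within set 1.4.21. Among all pairs compared, not only the 61, 43 passed within set 8.18.21 (9 lengths, exact permutation test). Within set 1.4.21, 42 did (10 lengths, permutation test with 100000 resamples). Some of those that passed were not among the 61. In set 1.4.21, ndhG over rps16 had an adjusted permutation p of 0.0458, against 0.0571 over all sets. How many of the 61 passed within each set was not counted. These alternatives were chosen after the pooled pairs had been seen. The slope of cemA over rpoC2 was 1.29 within set 8.18.21 (exact permutation test, adjusted p = 0.00331) and 0.94 within set 1.4.21 (permutation test, adjusted p = 0.00976). For atpI over rpoB it was 0.75 and 1.10 (adjusted p = 0.0076 and 0.000407 by the same permutation tests). Set 3.29.22, with 5 lengths, was not tested; its ratio of cemA to rpoC2 was 0.846 at 1.25 mm, 1.07 at 1.5 mm, 4.13 at 2.25 mm, 3.67 at 2.75 mm and 4.48 at 3.0 mm. Without sets Pilot and MiSeq, 79 pairs passed, and all 61 kept their direction, again in cells that were part of the pooled sums.

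**Figure D4:**
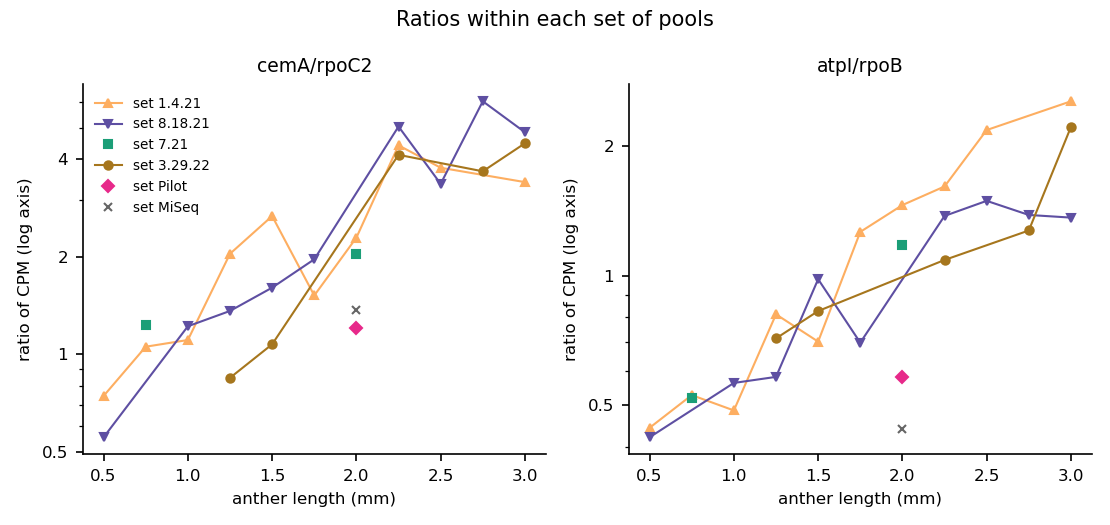
Ratio of CPM of cemA to rpoC2 and of atpI to rpoB by anther length, on log axes, with 1 point for each set and length of at least 5 cells; lines join sets with more than 3 lengths. Within sets 1.4.21, 8.18.21 and 3.29.22 the cemA to rpoC2 ratio lies at 0.744, 0.555 and 0.846 at their shortest length and at 3.40, 4.85 and 4.48 at 3.0 mm.

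Cells were clustered without any lower-case organelle symbol, so that the 18 rows did not shape the 23 clusters, which are kept by number. Cluster 1 (10.5% of the cells) was the cluster richest in nuclear photosynthesis transcripts: RBCS (Rubisco small subunit) was at 3048 CPM and CAB1 (a chlorophyll a/b binding protein) at 6307 CPM, against medians over the clusters of 99.6 and 337.04 CPM, and PSAH (965 CPM) and PSBQ1 (1439 CPM), subunits of the photosystems, were also highest there. These nuclear rows took part in the clustering, so their levels describe the cluster and test nothing. No cell of cluster 1 came from 0.5 mm or 1.0 mm anthers, while it held 8.27% of the cells at 1.5 mm, 21.3% at 2.25 mm and 37.1% at 3.0 mm. Its cemA level was 10979.9 CPM, against a median over clusters of 2575 CPM. Its atpI level was 3477 CPM against a median of 873 CPM, and ycf70, at 2764 CPM against 483 CPM, was highest in cluster 1 of all clusters. The RNA polymerase row rpoC2 was at 3285 CPM there, against a median of 1806 CPM, rank 4 of the 23 clusters. The rows rpoA, rpoB and rpoC1 ranked 3 there, as atpI did, and cemA ranked 2. All 18 rows ranked 4 or better in cluster 1, so a high level there was not particular to cemA, atpI and ycf70.

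An alternative added once the data had been seen left out the cells of cluster 1. By edgeR, 0 of the 18 rows then rose and 0 fell, where 14.4% of 5194 rows tested rose. The slope of cemA was then 0.29 (SE 0.20, edgeR adjusted p = 0.313), that of atpI 0.22 (SE 0.20, edgeR adjusted p = 0.473), that of ndhG 0.62 (SE 0.28, edgeR adjusted p = 0.119), that of ndhI 0.50 (SE 0.34, edgeR adjusted p = 0.31) and that of ycf70 -0.01 (SE 0.21, edgeR adjusted p = 0.985). Only ndhG and rpoC2 (-0.51, SE 0.23) had an unadjusted p under 0.05. The summed level of cemA outside cluster 1 went from 1566 CPM at 0.5 mm through 3304 at 1.0 mm and 3625 at 2.0 mm to 2757 at 3.0 mm. Any change over length there was within the scatter of lengths.

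Part of the pairs still passed without those cells. With cluster 1 left out, all 61 pairs kept their direction, and 30 pairs passed (permutation test, adjusted p under 0.05), every one of them among the 61. The cells left were part of the sums that picked the 61, and the sums at 0.5 and 1.0 mm were unchanged. Kept directions and membership in the 61 are therefore no independent check. The 30 show only which pairs did not need the cells of cluster 1 to pass. The 30 included cemA and atpI above all 4 RNA polymerase rows each, and NDH rows above RNA polymerase rows in 10 pairs and above ribosomal rows in 6. The ratio of cemA to rpoC2 outside cluster 1 was 0.568 at 0.5 mm, 1.75 at 1.75 mm, 3.65 at 2.25 mm and 2.71 at 3.0 mm, a slope of 0.84 (permutation test, adjusted p = 0.00556). That of ndhG over rpoC2 had a slope of 0.996 (permutation test, adjusted p = 0.00122), close to its slope over all cells. For atpI over its neighbour rps2 the slope fell to 0.39 (permutation test, adjusted p = 0.0938) and no longer passed.

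Within clusters the same rows could be followed at like cells, at less depth. The 8 clusters with at least 6 lengths of 5 or more cells together called 6.49% of 2096 rows tested. Of the 18 rows, 15 were tested in cluster 1 and 5 to 13 in each other cluster. The only call was cemA in cluster 1, 1 of 15, a share near the 5.62% of all rows tested in that cluster that rose. It stood at 8976, 8257, 7687, 12517, 9783, 17752 and 15481 CPM from 1.5 to 3.0 mm. Its slope was 0.85 (SE 0.21, edgeR adjusted p = 0.0208). The highest 2 values were the last 2. The call was lost with library size alone (0.42, edgeR adjusted p = 0.185) and without 1.5, 1.75 or 3.0 mm (slopes of 1.14, 0.89 and 0.90, edgeR adjusted p = 0.0527, 0.0561 and 0.0802). In the same cluster atpI had a slope of 0.40 (SE 0.28), ndhG one of 0.09 (SE 0.41), rpoB one of -0.47 (SE 0.33), rpoC2 one of -0.25 (SE 0.32) and ycf70 one of -0.000166 (SE 0.34), none past the test. Of the 61 pairs, 59 had the same direction within cluster 1 over its 7 lengths, 54 within cluster 4 and 51 within cluster 15. Cluster 10 kept 50, clusters 2 and 5 kept 37 each, cluster 13 kept 35 and cluster 3 kept 34. These directions were not tested, and the cells were also part of the sums that picked the 61.

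The balance of these rows also ranged widely over clusters, which hold unlike shares of the lengths. The ratio of cemA to rpoC2 ran from 0.589 in cluster 9 to 5.10 in cluster 22, with a median of 1.67 and 3.34 in cluster 1. Of cluster 9, however, 54 of 84 cells came from 0.5 mm anthers, and of cluster 22, 20 of 23 cells from 3.0 mm anthers, the lengths where the ratio over all cells was 0.568 and 4.31. Cluster and length cannot be told apart for these values. Clusters 4 (6.03% of the cells) and 20 (1.45%, all of set Pilot) had many members at levels near or above those of cluster 1, summed over lengths. In cluster 4 cemA was at 9929 CPM and rpoC2 at 7908 CPM, a ratio of 1.26, with RBCS at 432 CPM. At the 4 lengths that clusters 1 and 4 share (1.5, 1.75, 2.0 and 2.25 mm), rpoB in cluster 4 was 1.01, 1.04, 3.04 and 1.46 times its level in cluster 1, and rpoC2 was 2.19, 1.24, 2.64 and 0.954 times. For cemA the same ratios were 1.03, 0.989, 1.76 and 0.383. The 2.25 mm ratios rest on 6 cells of cluster 4, with 19 UMIs of rpoB, 15 of rpoC2 and 39 of cemA. The widest excess of cluster 4 in rpoB, rpoC2 and cemA was thus at 2.0 mm, the length of sets Pilot and MiSeq. In cluster 20 cemA was at 12413 CPM, rpoC2 at 9824 CPM and ndhI at 2153 CPM, with RBCS at 699 CPM. Cluster 20 was the highest of the 23 for 17 of the 18 rows. The row rpoC1 was among the 10 leading rows of both clusters and ndhI among those of cluster 20. Rows without a symbol were left in the clustering. Of the 10 leading rows of cluster 4, 3 had IDs starting with GRMZM5G, and no other cluster had any among its 10. Whether these or other rows hold organelle transcripts, and so helped to form cluster 4, was not tested. The lowest values of 13 of the 18 rows were in cluster 21, with cemA at 640.2 CPM and rpoC2 at 352.1 CPM. Across the 23 clusters the Spearman correlation with RBCS was 0.68 for cemA, 0.57 for ycf70 and 0.48 for atpI. RNA polymerase rows ran from 0.01 (rpoC1) to 0.25 (rpoA), with rpoB at 0.16 and rpoC2 at 0.06. NDH rows, from 0.21 (ndhF) to 0.39 (ndhG), and ribosomal protein rows, from 0.05 (rps2) to 0.41 (rps18), overlapped. The clusters share libraries and depth, and the coefficients are descriptions.

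**Figure D5:**
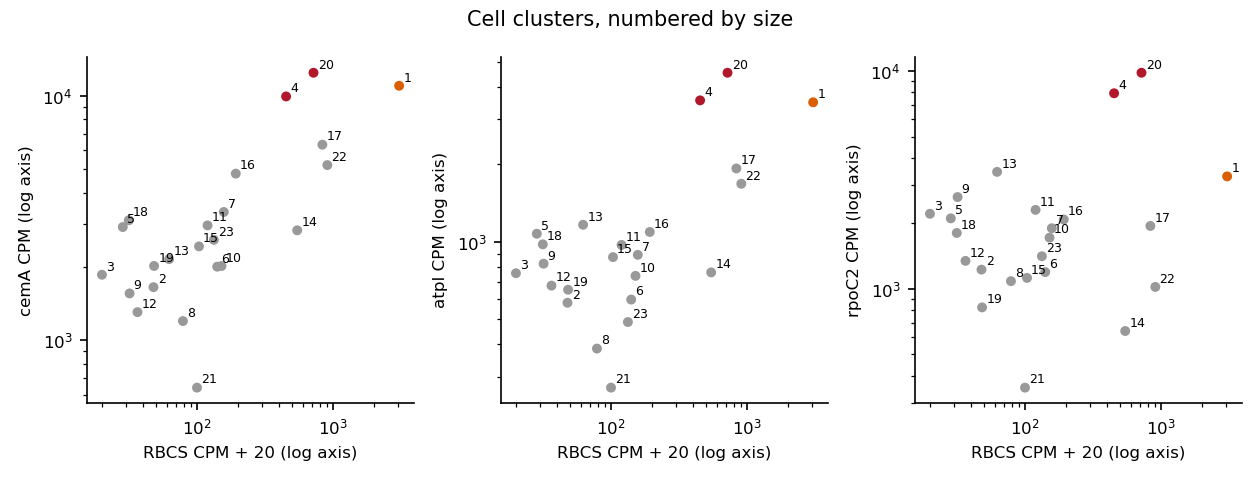
Levels of cemA, atpI and rpoC2 against RBCS in the 23 clusters, in CPM on log axes with 20 added to RBCS; each number is a cluster, with cluster 1 in orange and clusters 4 and 20 in red. Cluster 1 lies far right, at rank 2 of the 23 for cemA (10979.9 CPM) and rank 4 for rpoC2 (3285 CPM). Clusters 4 and 20 are the highest for rpoC2, at 7908 and 9824 CPM.

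The sum at 2.0 mm, where 9 of the 18 rows peaked, mixed sets of unlike levels. At that length rpoC1 was at 344.1 CPM for set 1.4.21, 390.7 for set 7.21, 1633 for set Pilot and 2260.06 for set MiSeq. The row rpoC2 was at 1144, 1259, 3524 and 5780.05 CPM in the same order, and cemA at 2621, 2564, 4258 and 7897 CPM. For all 3 rows the sets fall into a low pair and a high pair. Of the 28 cells of set MiSeq, 11 were in cluster 4, and set Pilot gave all of cluster 20. Set and cells cannot be told apart here. Without both sets the 5 rows that rose still passed, together with ndhH (0.51, SE 0.18, edgeR adjusted p = 0.0425), where 17.1% of 5599 rows tested rose.

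Other rows of the plastid and its nuclear partners place these courses. Of the 7 plastid-encoded rows with other prefixes, all 5 photosystem rows rose, from psbC at 1.15 (SE 0.15) to psaC at 1.59 (SE 0.27), each with a larger slope than any of the 18; that difference was not tested. The rows clpP, a protease subunit (-0.05, SE 0.16), and infA, a translation initiation factor (0.06, SE 0.15), did not pass. All 5 tested nuclear photosynthesis rows of 6 rose, with the largest slopes in RBCS (2.37), PSAH (2.32) and PSBQ1 (1.69). Over the 11 lengths the symbol-named rows most like cemA among 73 were psbC (Pearson r = 0.96), psbB (0.91) and RBCS (0.91). Those most like atpI were psbB (0.90), psbC (0.87) and psbH (0.84), and those most like ycf70 were PSBQ1 (0.83), RBCS (0.77) and PSAH (0.76). The row ndhF was most like ATPA (0.68), psbB (0.66) and clpP (0.59). By contrast rps3 was most like infA (0.89), clpP (0.78) and ROA2 (0.70), and rpoC2 was most like ROA2 (0.79), infA (0.78) and DMT105 (0.76). These coefficients share the 11 libraries and are descriptions.

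Single cells held the rows unevenly, and no cell type known to lack plastid RNA was there to set a background for free RNA. A UMI of rps3 was found in 92.9% of the 1658 cells, of cemA in 87.0%, of rpoC2 in 78.5% and of atpI in 64.2%, and at the other end ndhG was found in 19.4%, ndhH in 17.2% and ndhE in 12.4%. The tenth of cells with the most UMIs of a row held 53.0% of those of cemA, 56.5% of rpoC2, 46.2% of rps3 and 89.3% of ndhE. These shares depend on the depth of each cell and are not compared between lengths.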

How the data were processed

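UMI counts of 2182 maize W23 anther cells were analysed from 1 table that the authors deposited as whole-number counts, with no normalisation, per the file headers. Per the submitters' processing notes, reads went through HISAT2 with the maize build B73 RefGen_v4. The counting tool, strand setting and any filter are not stated. Lengths, sets and numbers came from cell titles, and a set, number and length make a pool (60 pools). The 18 rows, the other lists and the tests were chosen with earlier results of these data known.

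Cells with at least 500 UMIs (1658) were summed by length, since cells are not replicates; whether lengths were separate batches is not given. CPM are UMIs scaled to the summed UMIs. Rows passing filterByExpr were tested in edgeR 4.0.16 under R 4.3.3 (scaling by TMM, quasi-likelihood F-test, Benjamini-Hochberg over the whole table); all 18 passed. SEs come from the slope and its F statistic, and residual SEs of ratios from the regression. Intervals cover counting error only. The same fits were made for a squared term, for the interaction of set and length (sums of at least 5 cells) and within clusters with at least 6 such lengths. Cells were clustered with scanpy 1.11.5 (2000 variable genes, 20 components, 15 neighbours, Leiden resolution 1), without lower-case organelle symbols, PHAS and microRNA rows; doublets were not removed. A cluster was counted as having recurring wells when its pairs of cells from the same well name in different pools exceeded 2 times the number its size gives. Other rows named followed a rule: plastid symbols with other prefixes, nuclear photosynthesis symbols (largest 3 slopes) and, for the row of each role with most UMIs, the 3 most correlated symbol-named rows. The fits were tested on simulated counts. Alternatives used RLE factors, library size alone, no filter, DESeq2 1.42.0, other cell filters, thinned cells, nuclear totals, set terms, single sets and sums without 1 length, 1 pool, 1 cluster or 2 sets. No sequences were used.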

Additional observations from a re-analysis of the deposited data

How the results depend on the processing

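The direction of the 5 rows that rose was the same under every alternative run, except that ycf70 turned to -0.0089 without cluster 1. The number that rose, 5 with all cells and TMM, was 3 with library size alone, 9 with set as a covariate, 9 within set 1.4.21, 0 within set 8.18.21, 0 without cluster 1 and 4 to 7 without single lengths. The pairs past the test, 61, came to 30 without cluster 1, 47 without 3.0 mm and 76 without 2.0 mm. Over the whole table, the 30.2% of 5537 rows whose slope passed became 11.9% of 22173 with no filter, 38.6% of 1296 with cells thinned to 500 UMIs, 28.2% of 1042 within set 1.4.21, 17.7% of 4073 within set 8.18.21, and 21.7% to 29.0% without single lengths. Squared terms went from 0.846% to 1.50% with no filter, 0.382% with DESeq2, 2.51% without number 7 of set 8.18.21 at 0.5 mm, and 0.301% to 1.95% without single lengths. Slope differences between sets went from 0.198% to 0% with library size alone, and 0% to 0.191% without single lengths. Within clusters, 6.49% of rows became 7.85% of 599 with sums of at least 10 cells and 1.57% to 6.30% without single lengths, and the 1 call of the 18 rows became 0 with library size alone and 0 to 1 without single lengths. The causes were not tested, beyond that fewer rows were tested within single sets, and in thinned cells.

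Some slopes of rows that had not passed changed sign. With library size alone, rpl14 was at -0.21, rpoA at -0.19, rps2 at -0.20 and rps3 at -0.25. With no filter rpl14 was at -0.0038 and rps3 at -0.0481, and with all cells rps3 was at -0.0075. In thinned cells rpl14 was at -0.0536 and rps3 at -0.0345. Within set 8.18.21 rpl14 was at -0.16, rpoA at -0.0889, rps18 at -0.0109, rps2 at -0.0955 and rps3 at -0.30. Within set 1.4.21 rpoB was at 0.16, rpoC1 at 0.21 and rpoC2 at 0.30. With set as a covariate rps2 was at -0.0315, and without sets Pilot and MiSeq at -0.0229. Without cluster 1, rpl14 was at -0.18, rpl33 at -0.0114, rpoA at -0.30, rps18 at -0.11, rps2 at -0.0703 and rps3 at -0.32. Without single lengths rpl14 ranged from -0.0837 to 0.14, rpoA from -0.0666 to 0.13, rpoC1 from -0.20 to 0.11, rps2 from -0.15 to 0.26 and rps3 from -0.0740 to 0.0819.

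What a set number stands for is not given. Pools of the same set and number at different lengths had a median correlation of deviations of 0.0744 (45 pairs, from -0.0763 to 0.220). For pools of other numbers the median was -0.00227 (1028 pairs, from -0.239 to 0.270). Pools of the same number were thus slightly more alike by the median, and that difference was not tested. With set and number as the replicate block, 0 of 16 rows rose, where 6.51% of 1782 rows did and 10.3% passed in either direction. There rpoA was at -0.14, rps18 at -0.18, rps2 at -0.28 and rps3 at -0.26, and of the 5 rows cemA was at 0.63, atpI at 0.46, ndhG at 0.96, ndhI at 0.51 and ycf70 at 0.13, none past the test by edgeR, with cemA, ndhG, rpoB and rpoC2 at an unadjusted p under 0.05. Depth limited the NDH rows most: ndhE, ndhG and ndhH fell below the filter in thinned cells.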
